A study of Mus musculus with 192 samples.

Results

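The Ifit genes code for interferon-induced proteins with tetratricopeptide repeats, and the family was followed here in single mouse embryonic fibroblasts at the level of transcription start sites. Its 6 members were Ifit1, Ifit2, Ifit3, Ifit3b, Ifit1bl1 and Ifit1bl2, of 18460 genes that the deposited RefSeq table of start windows names. Members were taken by gene name, with windows (150 bp stretches in which starts were listed) no more than 1000 bp from the annotated start. This gave 55 of 553094 windows, on chromosome 19 of mouse build mm9, and 5 of the 6 members had windows on their own strand. Ifit1bl1 had none and was listed at 0 in both groups.

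The cells were fibroblasts grown out of C57BL/6 mouse embryos, and the assay read the 5′ ends of polyadenylated RNA cell by cell. All cells, including the comparison group, had been exposed to interferon-beta at 100 U/ml for 1 h. One group of 96 cells was labelled naïve and another group of 96 pretreated, and the labels do not say what the pretreatment was. After cells of very low depth were set aside, 92 naïve and 85 pretreated cells remained. No animal, culture or plate is named, so each group counts as 1 sample of many cells. The differences between groups therefore have no replicate check, no test between groups was run, and every interval covers counting error only. Intervals of levels and ratios take each read as an independent count. They do not cover copies of the same molecule or the spread between cells, and are too narrow for either.

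Interferon-beta binds a receptor that activates the JAK kinases and, through them, the transcription factor complex ISGF3, which binds the interferon-stimulated response element (ISRE) in the promoters of antiviral genes, and the Ifit genes are among its classic targets. Ifit proteins act in the cytoplasm: Ifit1 binds viral RNA whose 5′ end lacks the marks of host mRNA, and members of the family bind one another. Mouse Ifit3b is a near-identical copy of Ifit3.

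The promoters of the members are shown because the element that ISGF3 reads can be seen in the letters. They are from RefSeq, on build GRCm38.p6, 5′ to 3′ on the + strand of chromosome 19, and stop just before the annotated start (Ifit3b at the base that matches the last base shown for Ifit3). The stretch of Ifit1 (chr19:34640744-34640888) is the 145 bases that separate its start from the start of Ifit1bl2, which runs the other way. Those of Ifit3 (chr19:34583279-34583528), Ifit3b (chr19:34607707-34607930) and Ifit2 (chr19:34550444-34550693) follow. Capitals mark the core of the ISRE, GAAA followed by any 2 bases and GAAA again, or its reverse complement (TTTC, any 2 bases, TTTC), searched on both strands.

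Ifit1: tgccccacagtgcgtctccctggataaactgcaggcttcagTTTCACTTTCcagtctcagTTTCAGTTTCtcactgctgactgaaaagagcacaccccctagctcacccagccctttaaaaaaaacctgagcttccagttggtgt

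Ifit3: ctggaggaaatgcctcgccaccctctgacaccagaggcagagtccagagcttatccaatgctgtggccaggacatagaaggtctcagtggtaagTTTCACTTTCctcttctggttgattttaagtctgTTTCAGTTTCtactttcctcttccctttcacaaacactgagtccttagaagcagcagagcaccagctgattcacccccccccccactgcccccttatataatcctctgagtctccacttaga

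Ifit3b: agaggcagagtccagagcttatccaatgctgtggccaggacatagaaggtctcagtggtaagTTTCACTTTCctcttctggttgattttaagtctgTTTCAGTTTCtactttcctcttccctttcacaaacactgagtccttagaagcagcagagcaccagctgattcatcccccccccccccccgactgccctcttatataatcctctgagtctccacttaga

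Ifit2: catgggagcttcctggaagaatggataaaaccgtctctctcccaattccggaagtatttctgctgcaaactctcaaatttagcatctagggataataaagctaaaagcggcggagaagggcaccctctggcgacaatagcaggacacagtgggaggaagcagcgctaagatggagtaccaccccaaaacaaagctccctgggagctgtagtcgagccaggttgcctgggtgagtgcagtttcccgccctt

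Ifit1, Ifit3 and Ifit3b each held 2 copies, TTTCACTTTC and then TTTCAGTTTC. In Ifit1 these lay at -104 to -95 and -85 to -76 from the RefSeq start, in Ifit3 at -156 to -147 and -122 to -113, and in Ifit3b at -188 to -179 and -154 to -145. The 2 copies upstream of Ifit1 are the same bases that lie at -70 to -61 and -51 to -42 of Ifit1bl2 on the other strand. Each of the 2 RefSeq promoters of Ifit1bl1 held 1 copy, TTTCATTTTC, at different places. The 2 RefSeq promoters of Ifit2 held none, which says only that these letters are not in that window. Of all 32851 promoters of 300 bases in the table, 3.44% held the motif. By gene it was found in 5 of the 6 members, in 19 of 51 genes of the interferon pathway list that have a promoter in the table, and in 3.99% of 27025 genes. The promoters of Ifit3 and Ifit3b matched at 258 of 274 aligned positions (94.2%). Their GENCODE transcripts Ifit3-201 and Ifit3b-201 matched at 1663 of 1700 (97.8%). The first 300 bases of these transcripts, at the end that the assay reads, matched at 253 of 255 aligned positions (99.2%). Reads could therefore be placed on either gene, and the values of these 2 genes are uncertain one by one.

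The Ifit genes as a family were listed more widely and at a higher summed level in pretreated cells. A gene is called listed in a cell if the cell's deposited peaks hold at least 1 start peak of it, and its level is its tags (reads) per 10000000 tags of the cell or of the group's summed cells. Summed over cells, the members held 8719 tags per 10000000 in naïve and 16792 in pretreated cells, 1.93-fold more (log2 ratio 0.95, interval 0.94 to 0.95). Per cell the family level was 0 at the lowest, 3979.5 at the median and 71030.4 at the highest in naïve cells, and 261, 14939 and 39874 in pretreated cells. The ranges overlapped: 20 of 92 naïve cells lay above the pretreated median, and no pretreated cell lay above the highest naïve cell, naïve cell 79, which held 13.5% of the naïve family tags. At least 1 member was listed in 73 of 92 naïve cells and in 85 of 85 pretreated cells.

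These ratios are per header total, and on that scale most genes were higher in pretreated cells: the median log2 ratio over the 4485 genes that passed a filter on low values was 0.47. To pass, a gene needed at least 50 tags per 10000000 and a listing in at least 20% of the cells, each in at least 1 group. Scaling by the median of ratios over those genes takes 0.47 off every log2 ratio, and the family ratio is then 0.48. On the header scale 1345 genes were at least 2-fold higher and 409 at least 2-fold lower, and on the median-of-ratios scale 784 and 693. Pretreated cells also had deeper libraries (median 2650490 total tags, range 502374 to 13174313) than naïve cells (2305628, 305066 to 3857034), a smaller share of tags in peaks (84.6% against 90.1%) and less focused peaks (median focus ratio, how much of a peak lies near its top, 0.947 against 0.978). The part of depth and peak focus in these differences was not tested. The labelled cell type was checked by markers. Of 15 fibroblast markers 14 were listed in at least 1 cell, 9 of them in at least 20% of naïve and 10 in at least 20% of pretreated cells. The list had a summed median of 43918 tags per 10000000 in naïve and 56848 in pretreated cells. Lum was at 0 in both groups and Thy1 in pretreated cells. All 6 epithelial markers were at 0, as were Ptprc of leukocytes, Pecam1 and Cdh5 of endothelium and Snap25 of nerve. Cd68, Csf1r, Lyz2 and Fcer1g of leukocytes, Kdr of endothelium and Tubb3 of nerve were listed in some cells. None of them reached 20% of the cells of either group. Each of the lists for leukocytes (9 genes), endothelium (5) and nerve (5) had a summed median of 0 in both groups, and the highest cell reached 2414.

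Ifit1, the family's main sensor of unmarked RNA 5′ ends, was the most abundant member in both groups. It was listed in 68 of 92 naïve cells (73.9%, interval 63.7 to 82.5) and in 84 of 85 pretreated cells (98.8%, 93.6 to 100.0). In the naïve cells that listed it the level was 259 at the lowest, 4709 at the median and 37959.7 tags per 10000000 at the highest, and in pretreated cells 530, 9559.7 and 24325. The naïve cells were thus spread more widely, from unlisted to above every pretreated cell, and 17 of them exceeded the pretreated median. Summed over cells Ifit1 went from 5216 to 10143, a log2 ratio of 0.96 (0.95 to 0.97), and 0.49 on the median-of-ratios scale. This is just under 2-fold. The cells with the most Ifit1 tags were naïve cell 78 and pretreated cell 26. With both left out the log2 ratio was 1.02, just over 2-fold. Among the 4485 genes Ifit1 ranked 187 by level in naïve and 82 in pretreated cells.

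Ifit3, which pairs with other Ifit proteins, had the largest difference in listing among the members at their annotated starts. It was listed in 34 of 92 naïve cells (36.96%, 27.1 to 47.7) and in all 85 pretreated cells. Where listed, naïve cells held 255 at the lowest, 2406 at the median and 19643 at the highest, and pretreated cells 261, 3984 and 14005. The naïve maximum was above every pretreated cell, but only 10 of 92 naïve cells exceeded the pretreated median. The summed level went from 1577 to 4478, past 2-fold, with a log2 ratio of 1.51 (1.49 to 1.52), and 1.04 on the median-of-ratios scale. Naïve cell 79 alone held 20.7% of the naïve tags.

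Ifit3b, the copy of Ifit3, was listed in more pretreated cells with nearly the same summed level on the header scale. It was listed in 49 of 92 naïve cells (53.3%, 42.6 to 63.7) and 83 of 85 pretreated cells (97.6%, 91.8 to 99.7). Where listed, naïve cells held 200.1 at the lowest, 2534 at the median and 18650.1 at the highest, and pretreated cells 323, 1748 and 5088. Fewer naïve cells listed it, then, but their levels reached further up, and 30 of 92 naïve cells exceeded the pretreated median. The summed level was 1810.0 in naïve against 1833 in pretreated cells (log2 ratio 0.02, interval -0.001 to 0.037). This ratio changes sign with the scaling, to -0.45 on the median-of-ratios scale and to -0.14 with each cell weighing the same. It was 0.18 with the cell of most Ifit3b tags in each group left out, and 0.09 with no limit on the distance. Naïve cell 79 held 17.1% of the naïve tags. Because reads of the 2 copies may be exchanged, their sum is the safer value. It came to 3387 in naïve against 6310.3 in pretreated cells (log2 ratio 0.90, interval 0.89 to 0.91).

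Within the family, at annotated starts, the balance of tags placed on the copies differed between groups, though their reads may be exchanged. Naïve cell 79 alone held 20.7% of the naïve Ifit3 tags and 17.1% of the naïve Ifit3b tags. Ifit1 held 59.8% of the family's tags in naïve and 60.4% in pretreated cells. Ifit3 held 18.1% and 26.7%, and Ifit3b 20.8% and 10.9%. With the starts in the second exon of Ifit2 added, Ifit1 held 59.6% and 52.3% and Ifit2 1.58% and 14.9%. In order of level at annotated starts, pretreated cells had Ifit1, Ifit3, Ifit3b, Ifit2 and Ifit1bl2. Naïve cells had Ifit3b (1810.0) above Ifit3 (1577), with overlapping ranges over cells.

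**Figure D1:**
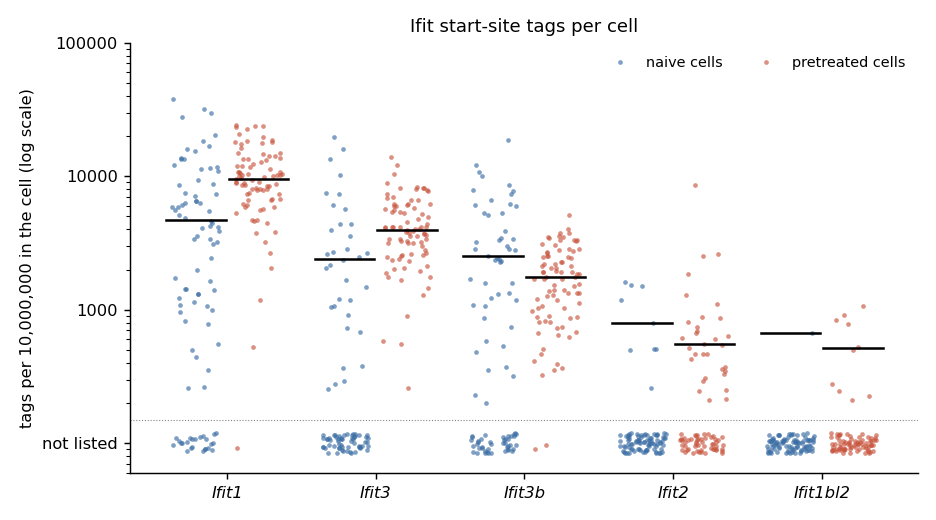
Level of each Ifit gene in every kept cell, in tags per 10000000 tags of the cell on a log axis, for naïve (blue, n = 92) and pretreated (red, n = 85) cells. Each point is a cell, cells without a listed peak lie below the dotted line, and the black bar is the median of the cells that list the gene. Ifit1 and Ifit3 are listed in 84 and 85 of the pretreated cells, the highest cells of Ifit1, Ifit3 and Ifit3b are naïve, and Ifit2 and Ifit1bl2 stay unlisted in most cells of both groups at their annotated starts.

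Of the 6 members, 4 passed the filter on low values (Ifit1, Ifit2, Ifit3 and Ifit3b). Of these, 2 (Ifit2 and Ifit3) were at least 2-fold higher in pretreated cells, against 30% of all genes tested, and none was at least 2-fold lower, against 9.12%. Ifit2 passed the filter only through the pretreated cells, where it is high, so its place in this count follows from its difference and the count supports nothing further. The median log2 ratio of the 4 was 1.20, beside 0.47 over all genes. On the median-of-ratios scale 1 of the 4, Ifit3, was past 2-fold, since Ifit2 was then at 0.97, beside 17.5% of all genes. With so few members these shares do not set the family apart from the background.

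**Figure D2:**
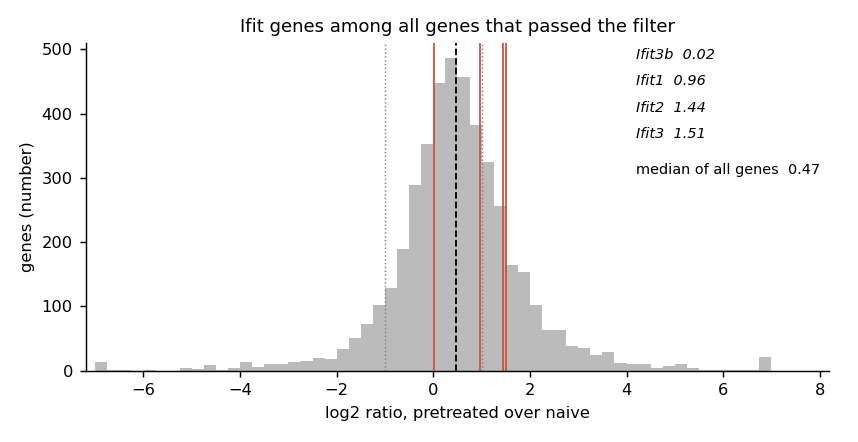
Number of genes (vertical axis) by log2 ratio of pretreated over naïve level (horizontal axis) for the 4485 genes that passed the filter, with genes beyond 7 in either direction placed in the end bins. Red lines mark Ifit3b at 0.02, Ifit1 at 0.96, Ifit2 at 1.44 and Ifit3 at 1.51, the dashed line is the median of all genes at 0.47, and dotted lines mark 2-fold. At their annotated starts the 4 members lie within the bulk of the distribution. With the starts in its second exon added, which are not drawn here, Ifit2 was at 4.38.

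Pretreated cells also listed more members per cell. Naïve cells listed 1.75 ± 1.25 members (mean ± SD over 92 cells) and pretreated cells 3.46 ± 0.68 (85 cells). In the naïve group 19 cells listed none of the family, 22 listed 1 gene, 20 listed 2, 25 listed 3 and 6 listed 4. In the pretreated group 1 cell listed 1 gene, 49 listed 3, 29 listed 4 and 6 listed 5. Listing was wider in pretreated cells for most genes. A naïve cell listed 1967 genes at the median and a pretreated cell 2931, and 86.1% of the 4485 genes that passed the filter were listed in a higher percent of pretreated cells, by 17.1 percentage points at the median. The difference was 24.9 points for Ifit1, 27.9 for Ifit2, 44.4 for Ifit3b and 63.04 for Ifit3, which is above 70.3%, 76.1%, 94.1% and 99.02% of those genes. Ifit1, Ifit3 and Ifit3b were listed together in 30 naïve cells (32.6%) and in 83 pretreated cells (97.6%).

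In naïve cells the partial combinations mostly held Ifit1. It was listed alone of these 3 genes in 19 naïve cells and with Ifit3b but not Ifit3 in 16. The other partial combinations were rarer: Ifit1 with Ifit3 only in 3 cells, Ifit3b alone in 3 and Ifit3 alone in 1. Of the 34 naïve cells with Ifit3, 33 also listed Ifit1 and 30 listed Ifit3b. The 19 naïve cells with no member had a median total of 2768239 tags (954699 to 3857034), beside 2190437 in cells with at least 1 member. The 34 naïve cells with Ifit3 had a median of 1743479 and the 58 without it 2491008. After each cell was thinned to 1122993 tags, which left out 16 naïve and 2 pretreated cells, the difference in members listed per cell was 1.77, beside 1.71 unthinned.

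**Figure D3:**
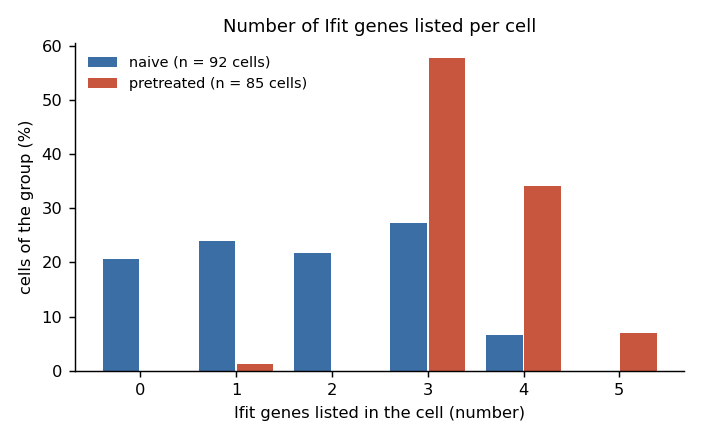
Percent of the cells of each group (vertical axis) by the number of Ifit genes listed in the cell (horizontal axis), naïve in blue and pretreated in red. Naïve cells spread from 0 to 4 genes, and all pretreated cells but 1 list 3 to 5.

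The 3 abundant members were related to each other from cell to cell, in part because they were listed in the same cells. These rank correlations are descriptions over cells that share a library preparation and scaling. Reads of Ifit3 and Ifit3b may also be exchanged, and the part of this in their correlation was not tested. Over the 92 naïve cells Spearman's rho was 0.69 between Ifit1 and Ifit3, 0.70 between Ifit1 and Ifit3b and 0.69 between Ifit3 and Ifit3b. Over only the naïve cells that listed both genes it was lower, at 0.35 (33 cells), 0.55 (46) and 0.31 (30). Over the 85 pretreated cells it was 0.63, 0.63 and 0.81, and over those that listed both genes 0.62, 0.66 and 0.80. Ifit2 at its annotated starts was weakly related to each of these 3 genes in both groups, with rho from -0.05 to 0.20. The rank correlation between the family's summed level and a cell's total tags was -0.19 over naïve cells and -0.05 over pretreated cells.

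The start of Ifit1 lay in the same window in most cells of both groups. Its leading window (the one with the most tags, each group weighing the same; chr19:34715304-34715453, + strand, mm9, centred 1 bp before the RefSeq start) held 97.1% of naïve tags in 60 of 68 listing cells, and 100% of pretreated tags in 84 of 84. Peaks outside it, in 8 naïve cells, lay between 34 bp before and 18 bp after the RefSeq start. The deposited peak started at 1 single base in 59 of 68 naïve and 78 of 84 pretreated cells.

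Ifit3 and Ifit3b, in contrast, had their listed start at different bases in the 2 groups. All 34 naïve cells with Ifit3 used the window at chr19:34657949-34658098, centred 4 bp after the RefSeq start. Of the 85 pretreated cells, 77 used chr19:34657946-34658095 and 8 used the naïve window, with 85.1% and 14.8% of the tags. Pretreated cell 76 alone held 7.90% of all pretreated Ifit3 tags. Its peak went to the naïve window but started 1 bp upstream of the naïve peak start, which the other 7 of the 8 cells shared. With each cell weighing the same the share in the naïve window was 9.41%. The most frequent peak start thus lay 3 bp further upstream in pretreated cells (64 of 85 cells) than in naïve cells (34 of 34).

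The copy showed the same offset at its own site. Of 49 naïve cells with Ifit3b, 47 used chr19:34682351-34682500, centred 22 bp before the RefSeq start, and of 83 pretreated cells 78 used chr19:34682348-34682497 and 4 the naïve window. The naïve window held 97.5% of naïve and 3.47% of pretreated tags. Again the most frequent peak start lay 3 bp upstream in pretreated (58 of 83) compared with naïve cells (47 of 49). Since the 2 genes are near copies, they are not independent cases. Of the pretreated cells in the naïve window, 8 for Ifit3 and 4 for Ifit3b, 2 were the same cells.

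The same offset was counted over other genes. Over 205 genes whose most frequent peak start was shared by at least 50% of listing cells in both groups, 185 (90.2%) had the same start in both groups. A start 3 bp upstream in pretreated cells was seen in 3 of them (1.46%), 2 of which were Ifit3 and Ifit3b. Starts 1 to 5 bp apart lay upstream in pretreated cells in 9 of the 205 and downstream in 4. Over all 4012 genes listed in at least 10 cells of both groups, most with several starts, 39.1% had the same most frequent start and 2.17% were 3 bp upstream. Of these 4012 genes, 446 were 1 to 5 bp upstream and 217 as far downstream. A deposited peak sits on the cell's highest pile of tags and the next must lie at least 300 bp away, so a minor start beside it is not listed. The use of 2 starts in 1 cell therefore cannot be read from these files. Whether alignment or peak placement differed between the groups was not tested.

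**Figure D4:**
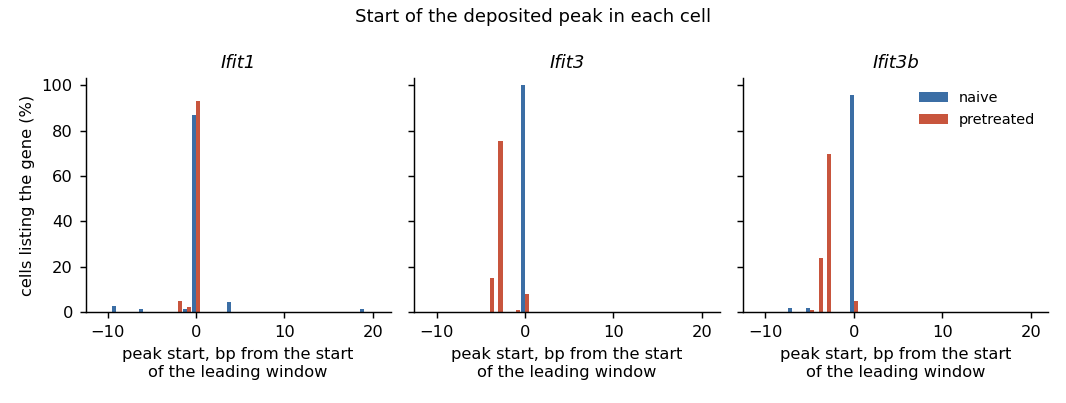
Percent of the cells listing the gene (vertical axis) by the start of the cell's deposited peak, in bp from the start of the gene's leading window (horizontal axis, upstream to the left), for naïve (blue) and pretreated (red) cells. Peaks further out than the axis are not drawn. Ifit1 peaks at 0 in both groups, while Ifit3 and Ifit3b peak at 0 in naïve and at -3 in pretreated cells.

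Ifit2, the member known for protecting mice against viruses that infect the brain, was rare at its annotated starts. It was listed there in 9 of 92 naïve cells (9.78%, 4.57 to 17.8) and 32 of 85 pretreated cells (37.6%, 27.4 to 48.8). Where listed, levels were 259.6 at the lowest, 796 at the median and 1611 at the highest in naïve cells, and 212, 549 and 8549 in pretreated cells. More pretreated cells listed it, but their median was lower. The summed level went from 104.9 to 284, a log2 ratio of 1.44 (1.37 to 1.51), on only 2133 and 8156 tags. No single start led: the peaks used 8 windows in naïve and 21 in pretreated cells, with centres from -183 to 184 bp of the nearest annotated start. Of these tags, 1735 in 8 pretreated cells were nearest to the second RefSeq start of Ifit2, where naïve cells were listed at 0.

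Most Ifit2 tags of pretreated cells started in the second of its 3 exons. The RefSeq table names these + strand windows (chr19:34644686-34644883 in all) for Ifit3, because the nearest annotated start is that of Ifit3, from which they lie at -13259 to -13211 bp. They lie outside the limit of 1000 bp and were looked at after the values were seen. They were listed in 6 of 92 naïve cells (6.52%) and 63 of 85 pretreated cells (74.1%). Naïve levels there were 229 at the lowest, 562 at the median and 1862 at the highest, and pretreated levels 215, 2643 and 14366. Beyond the 6 cells no naïve cell was listed here. Over all 85 pretreated cells, unlisted ones at 0, the median was 1706, and 1 naïve cell lay above it. The summed level went from 33.6 to 2598, a log2 ratio of 6.27 (6.16 to 6.38) from 684 and 74500 tags. Naïve cell 78 held 51.5% of the naïve tags, and without the cell of most tags in each group the log2 ratio was 7.11.

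Nearly all pretreated exon 2 tags fell in 3 neighbouring windows. Those starting at 34644701, 34644704 and 34644705 held 40.9%, 48.6% and 8.73% of the pretreated tags. Exon 2 held 24.3% of the naïve Ifit2 start tags and 90.1% of the pretreated ones. By cell, 36 pretreated cells listed exon 2 only, 27 listed both regions, 5 the annotated starts only and 17 neither, while in naïve cells 6 listed exon 2 only, 9 the annotated starts only and none both. Counting both regions, Ifit2 was listed in 15 naïve and 68 pretreated cells (80%), at 139 and 2882 tags per 10000000, a log2 ratio of 4.38. Of the 6 naïve cells with exon 2 starts, all listed Ifit1 and 4 listed Ifit3. All 63 such pretreated cells listed both, as nearly every pretreated cell did. No sequence is shown for this start, since the promoter table has no entry there.

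**Figure D5:**
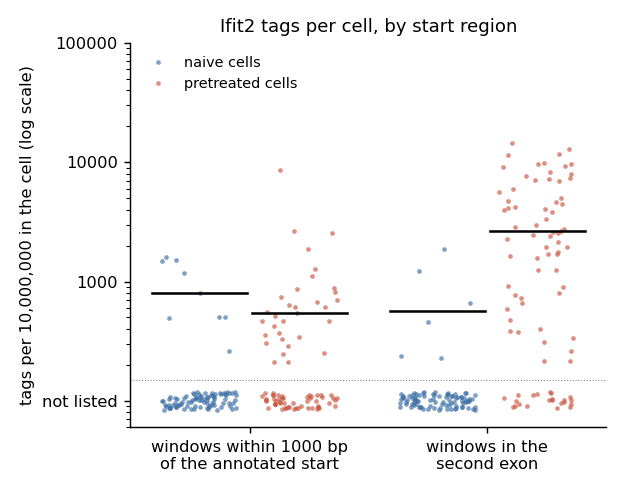
Ifit2 tags per 10000000 tags of the cell (log axis) in every kept cell, within 1000 bp of the annotated starts (left) and in the second exon (right), for naïve (blue, n = 92) and pretreated (red, n = 85) cells. Cells without a listed peak lie below the dotted line and black bars are medians of listing cells. In the second exon 63 pretreated and 6 naïve cells are listed, with medians of 2643 and 562.

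Ifit1bl2 is read from the minus strand, away from Ifit1. By coordinate its windows began 99 to 576 bp before the leading window of Ifit1 begins, and the nearest of them overlapped it. Ifit1bl2 was listed in 1 naïve cell (cell 79, the highest of the family, with 669.6 tags per 10000000). In 10 pretreated cells it was listed, at 209.8 at the lowest, 515 at the median and 1064.4 at the highest. Summed levels were 11.1 and 53.8 from 226 and 1542 tags, a log2 ratio of 2.27 (2.07 to 2.48) that rests on 1 naïve cell, and the gene did not pass the filter. All 10 pretreated cells also listed Ifit1, at a median of 10929.6, beside 8988 in cells without Ifit1bl2. In them Ifit1bl2 was at 4.50% of the cell's Ifit1 level at the median (1.19% to 14.1%). Ifit1bl1 had 4 windows on its strand further than 1000 bp from its start, with 160 tags in 3 pretreated cells and none listed in naïve cells.

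The wider interferon pathway was counted on a list of 65 genes, chosen with earlier results of these data known, of which 46 passed the filter. Of these, 29 were at least 2-fold higher in pretreated cells and 2 at least 2-fold lower, or 63.04% and 4.35%, beside 30% and 9.12% of all genes tested. Their median log2 ratio was 1.78 beside 0.47. On the median-of-ratios scale 26 were higher and 3 lower, beside 17.5% and 15.5% of all genes, with a median of 1.31. The counts by set below are to be read against the same shares. The median of the 4 Ifit genes that passed, 1.20, was below that of the list.

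At the receptor, 2 of 4 genes passed and 1 was higher, Ifnar2, a chain of the receptor (59.5 to 465 tags per 10000000, log2 2.97), while the kinase Jak1 was at 487 and 554 (log2 0.19). Of the transcription factors 3 of the 7 that passed were higher. Irf7, which amplifies interferon production, went from 6.89 to 349 (log2 5.66; 2 naïve and 48 pretreated cells). The ISGF3 subunit genes Stat2 (1068 and 1108, log2 0.05) and Irf9 (400 and 487, log2 0.29) were within 2-fold. Of the negative regulators 3 of 4 were higher, among them Usp18, the brake on the receptor, which went from 3263 to 10025 (log2 1.62). The phosphatase Ptpn2 was at 909 and 1366 (log2 0.59).

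Of the RNA and DNA sensors 3 of 6 were higher, led by Zbp1, a sensor of Z-form nucleic acid, from 104.7 to 3853 (log2 5.20). Tmem173, which codes for STING, was at 297 and 283 (log2 -0.07). Of the antiviral effectors 19 of 27 were higher and 2 lower, Ifitm2 and Mx2. Ifitm3, which blocks viral entry at membranes, was listed in every cell and went from 32786 to 71054.4 (log2 1.12). Its relative Ifitm2 went from 13634 to 644 (log2 -4.40), and reads of the 2 similar genes may be exchanged. On the same scale the ratios of the 5 Ifit genes with tags at annotated starts lay below those of Irf7 and Zbp1. Irf7 and Zbp1 had the largest ratios of the pathway genes named, on 2 and 12 naïve cells. Both passed the filter only through pretreated cells. The ratios of Jak1, Stat2, Irf9, Ptpn2, Tmem173 and Ifitm2 lay below that of Ifit1. The Ifit ratios were log2 0.02 to 1.51 for the 4 that passed the filter and 2.27 for Ifit1bl2. With its exon 2 starts counted too, Ifit2 was at 4.38, also below Irf7 and Zbp1. The exon 2 start alone, looked at after the values were seen, was at 6.27, on 684 naïve tags in 6 cells.

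The genes whose level followed the summed Ifit level most closely from cell to cell were picked by Spearman's rho in each group alone, as a description over cells. Over the 92 naïve cells and 4210 genes they were Usp18 (rho 0.74), the interferon-inducible GTPase gene Tgtp2 (0.67), Aspn, which codes for a matrix protein (0.62), Xaf1 (0.57) and the chemokine gene Cxcl10 (0.56). Over the 85 pretreated cells and 5817 genes they were Gbp3 (0.50), Irgm1 (0.46), Ifi44 (0.44), Tspan6 (0.42) and Ifi47 (0.42). In naïve cells rho was -0.06 for the median gene and 0.33 for the gene at the 99th percentile, and in pretreated cells 0.01 and 0.30. No gene was in the first 5 of both groups.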

How the data were processed

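Start-site libraries of 192 single cells were analysed from the deposited peak files. Reads were aligned with Bowtie2 to mm9 and peaks called with HOMER, per the submitters' processing notes. Per the file headers, HOMER ran on every cell and strand by itself, with peaks 150 bp wide and at least 300 bp apart, with at least 200 tags per 10000000, 2-fold over the surrounding 10000 bp and a Poisson p of 1e-04. The deposited signal of 5152 peaks lay below that minimum. Per the file headers, signal is deposited as tags scaled to 10000000 tags in that cell. Focus ratios were deposited as a fraction from 0 to 1. The sources used here mention no molecular identifiers, so a tag is a read.

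Tags were recovered as signal times header total divided by 10000000. All 1082504 peaks came out whole, within 0.1 or the rounding of the file. The design assumed counts, and the recovered tags took their place. A peak went to the window starting within 2 bp of it, and to a gene if the deposited RefSeq table named the gene within 1000 bp and the strand was the gene's. Cells under 10% of the median total were left out (4 naïve, 11 pretreated), and no kept cell repeated another's total. A gene absent from a cell's peaks is unlisted, which is not absence of RNA. Log2 ratios had 0.5 tag added to each sum. Intervals are exact (Poisson or Clopper-Pearson) at 95%, and were tested on simulated data.

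The members, gene lists and motif were chosen with earlier results of these data known. Named by rule were all members, the 2 most tagged genes passing the filter in each pathway set, Stat2, Irf7 and Irf9, and the 5 genes of highest rho in each group among those listed in at least 10% of its cells; 1 gene that the rule names is not reported here. Alternatives covered cells, scaling, distance, annotation, strand, filters and depth. A pair of deposited matrices whose 384 columns name no cell was not used. Python 3.11.15, scipy 1.17.1 and Biopython 1.88 were used.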

Additional observations from a re-analysis of the deposited data

Results flagged for a closer look

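Start peaks inside the last exon of Ifit1 were outside the report's comparison, because they lie 6593 to 9003 bp beyond its start (chr19:34721898-34724457, mm9, + strand). They held 17195 tags in 45 of 92 naïve cells and 32047 tags in 83 of 85 pretreated cells, spread over 78 and 125 windows. Summed levels were 846 and 1117 tags per 10000000, a log2 ratio of 0.40 (0.38 to 0.43) that is below the median of all genes, 0.47.

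Peaks on the + strand within the second intron of Ifit1bl2, a gene of the minus strand, were also unused (chr19:34697929-34698884). They held 515 tags in 4 naïve cells and 2163 tags in 11 pretreated cells, at 25.3 and 75.4 tags per 10000000. Pretreated cell 41 held 35.04% of the pretreated tags and naïve cell 33 held 32.2% of the naïve ones, and without both the log2 ratio was 1.51, beside 1.57 with them.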

How the results depend on the processing

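No paired analysis was possible because each sample is 1 cell and the cell numbers name cells without tying them across groups. The family log2 ratio of 0.95 was positive under every alternative run. It was 0.95 with tags scaled to gene tags, 0.48 with the median of ratios and 1.00 with no limit on the distance. With the GENCODE table, which names 4 of the members, it was 1.11. The ratio was 1.06 once each gene's cell with the most tags was dropped from each group. It was 1.15 with the exon 2 windows of Ifit2 added, an alternative chosen after seeing the data, which also took the difference in members listed per cell from 1.71 to 2.07; the other 5 settings tried for that difference gave 1.60 to 1.77. The 2 members past 2-fold became 1 with the median of ratios. They became 3 with the cells of most tags left out, and also with no filter on low values. The ratio of Ifit3b changed sign, to -0.45 with the median of ratios and -0.14 with each cell weighing the same. Of the pathway list 29 of 46 genes were past 2-fold, beside 30% of all genes, and some passed the filter only through pretreated cells. Under the alternatives this ranged from 26 of 46 with the median of ratios, beside 17.5%, to 36 of 63 with no filter on low values, beside 40.7%. Listing depends on the peak caller's minimum: with peaks of at least 500 tags per 10000000, 20% of pretreated cells listed Ifit2 and 90.6% listed Ifit3b. The causes of these movements were not tested, and with 1 sample per group no alternative replaces replication.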

Other observations

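Peaks in the last exons of the other members were not alike in direction. In Ifit3 (chr19:34661491-34663285, mm9) they held 16550 tags in 21 naïve cells and 8720 tags in 56 pretreated cells, 814 and 304 tags per 10000000, a log2 ratio of -1.42 (-1.46 to -1.38). Naïve cell 16 held 37.2% of the naïve tags, and without the cell of most tags in each group the ratio was -0.88. In Ifit3b 7 naïve cells held 1361 tags and 31 pretreated cells held 4913, a log2 ratio of 1.36. Naïve cell 79 held 52.5% of the naïve tags there, and without the cell of most tags in each group the ratio was 2.06. In Ifit2 6 naïve cells held 724 tags of the third exon and 44 pretreated cells 7427, a log2 ratio of 2.86. More pretreated than naïve cells listed such peaks in all 3 genes. At annotated starts, 86.1% of the 4485 genes that passed the filter were also listed in a higher percent of pretreated cells.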
